A study of Rattus norvegicus with 24 samples.

Results

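Respiratory complex I takes electrons from NADH and passes them to ubiquinone in the inner mitochondrial membrane, and it pumps protons as it does so. Its hydrophilic arm consists of the N module, where NADH is oxidised, and the Q module, where ubiquinone is reduced, and its membrane arm carries the proton pumps. The conserved core subunits do the chemistry, and the many accessory subunits, most of them small proteins encoded in the nucleus, are needed for assembly and stability. Neurons rely on this complex for most of their ATP, whereas the keratinising cells of a hair lose their mitochondria as the shaft hardens.

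The nuclear genes for its subunits were taken from the expression table by symbol, as every entry named Nduf followed by a, b, c, s, v or ab and a number, with the assembly factors (Ndufaf genes) left out. This gave 37 rows with 36 symbols among 17711 rows. Ndufa1 stands on 2 rows, and both are listed at 0 in all 24 libraries, which can be a failed estimate, so no fold is given for it. The other 35 members were above 0 and all of them passed the minimum of a mean FPKM of 1 in every comparison. FPKM, which scales fragments by transcript length and by the fragments mapped in a library, is a level per length, so that genes can be set side by side. Ndufa3, Ndufa13, Ndufb1, Ndufc1 and the subunits encoded in mitochondrial DNA were not analysed here. All 36 symbols matched RefSeq, and 15 of them have RefSeq pseudogenes named after them, so reads of these members may be shared with copies.

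The 4 groups, each of 6 libraries, were MA striatum, SA striatum, MA whisker follicle and SA whisker follicle. All animals were male Sprague-Dawley rats trained to press a lever, by which the MA rats gave themselves methamphetamine and the SA rats gave themselves saline. Both tissues came from the same animals, but the index of 0 to 5 on each library is not tied to a rat, so libraries are named by that index (MA library 4) and were not paired. The follicle was taken as bulk tissue, in which fewer cells of a type and less RNA per cell cannot be told apart, and the same holds for the striatum.

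The libraries carried the markers of their labelled tissue. The summed FPKM of 10 medium spiny neuron genes was 2330 to 5526 in MA striatum and 2331 to 5850 in SA striatum, against 31.7 to 42.0 in MA follicles and 16.9 to 46.7 in SA follicles. Hair shaft keratins on 6 rows of their own summed to 0.725 to 1.78 in MA striatum and 0.646 to 19.7 in SA striatum, against 33158 to 74133 in MA follicles and 15470 to 76848 in SA follicles. A further row that joins Krt31, Krt33a, Krt33b and Krt34 was left out of these sums, since it is listed at 0 in all 6 MA follicle libraries and in SA follicle library 0, and at 10772 to 41216 FPKM in the other 5 SA follicle libraries. The sum of all FPKM differed between the tissues, with 361025 to 418892 in MA striatum, 348717 to 371477 in SA striatum, 774567 to 1387585 in MA follicles and 1005812 to 1524572 in SA follicles. The paper gives a typical read number for a sample, but FPKM holds no counts, so the reads behind each value are unknown. The SDs given come from the variation among 6 libraries, and the standard errors (SE) from the fits over all libraries of a comparison.

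Promoter windows show what these genes share in sequence. Windows of 300 bases, from 250 before to 50 after the start, were found in RefSeq (GRCr8) for 32 of the 36 symbols. The 4 motifs searched, on both strands, were GCATGCGC (paired NRF1 core letters, NRF1 being a known activator of respiratory genes), CCGGAAG (an ETS site, as read by GABP), AAGATGGC (a YY1 site that often covers the start codon) and ACGTG (the core of a HIF response element). AAGATGGC stood in 8 of the 32 members (25%), against 3.17% of all 33469 promoters of the same length, coding or not. CCGGAAG stood in 6 members (18.8%) and 8.75% of all promoters, GCATGCGC in 2 members (6.25%) and 2.47% of all promoters, and ACGTG in 8 members (25%) and 19.3% of all promoters. The median GC content was 56.7% in the members and 51.7% in all promoters. The windows of 4 members on which the results turn are printed here with matches in capitals. They are Ndufa4 (chr4:40975510-40975809, minus strand) and its paralog Ndufa4l2 (chr7:65241919-65242218, plus strand), which differed most between the tissues, the core subunit Ndufs1 (chr9:72073556-72073855, minus strand), and the N module subunit Ndufs6 (chr1:31797150-31797449, plus strand), all 5′ to 3′ along the gene.
Ndufa4: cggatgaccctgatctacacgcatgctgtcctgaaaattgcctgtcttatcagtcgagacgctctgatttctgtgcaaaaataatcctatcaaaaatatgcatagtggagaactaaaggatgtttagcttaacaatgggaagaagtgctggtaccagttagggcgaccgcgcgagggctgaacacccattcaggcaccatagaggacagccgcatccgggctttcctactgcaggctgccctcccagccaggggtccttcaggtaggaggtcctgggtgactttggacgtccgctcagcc
Ndufa4l2: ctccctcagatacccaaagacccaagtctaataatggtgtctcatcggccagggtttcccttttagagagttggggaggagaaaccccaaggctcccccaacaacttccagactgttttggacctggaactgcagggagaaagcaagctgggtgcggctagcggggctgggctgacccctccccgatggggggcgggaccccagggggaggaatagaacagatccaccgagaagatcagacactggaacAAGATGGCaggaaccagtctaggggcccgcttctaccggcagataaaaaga
Ndufs1: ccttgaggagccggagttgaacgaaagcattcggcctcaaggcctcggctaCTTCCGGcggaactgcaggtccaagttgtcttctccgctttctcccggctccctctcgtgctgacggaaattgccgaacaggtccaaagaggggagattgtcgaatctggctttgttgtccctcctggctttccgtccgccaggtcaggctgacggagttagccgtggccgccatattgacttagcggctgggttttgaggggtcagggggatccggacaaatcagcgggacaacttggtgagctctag
Ndufs6: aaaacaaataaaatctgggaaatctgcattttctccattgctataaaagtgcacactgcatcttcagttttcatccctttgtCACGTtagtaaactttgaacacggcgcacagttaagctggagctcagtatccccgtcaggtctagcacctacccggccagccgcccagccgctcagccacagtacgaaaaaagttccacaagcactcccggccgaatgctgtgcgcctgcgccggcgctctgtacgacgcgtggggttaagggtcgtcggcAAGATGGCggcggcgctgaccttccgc
The Ndufa4 window held none of the 4 motifs. Ndufa4l2 held AAGATGGC at its start, Ndufs1 held CTTCCGG, the reverse complement of the ETS letters, and Ndufs6 held CACGT, the reverse complement of ACGTG, upstream and AAGATGGC downstream of the start. A match describes the letters and not a bound site.

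Most members were well expressed in both tissues. The median member had a mean of 125 FPKM in MA striatum, 124 FPKM in SA striatum, 150 FPKM in MA follicles and 180 FPKM in SA follicles. In the striatum the highest member was Ndufb8, an accessory subunit of the distal membrane arm, at 451 ± 64.6 FPKM in MA rats and 407 ± 30.9 FPKM in SA rats (SD, n = 6 each), and its next neighbour Ndufa4 was at 406 ± 42.0 and 365 ± 17.7 FPKM, so that their order is within the spread. In the follicle the highest was Ndufa6, an accessory subunit of the N module, at 545 ± 113 FPKM in MA rats and 752 ± 222 FPKM in SA rats, and Ndufb7 beside it was at 535 ± 186 and 748 ± 327 FPKM. The lowest in the striatum was Ndufa4l2 at 8.74 ± 2.58 FPKM in MA rats and 7.80 ± 1.60 FPKM in SA rats. The 10 highest members were the same genes in MA and SA striatum (10 of 10) and in MA and SA follicles (10 of 10), and SA striatum shared 7 of its 10 with SA follicles.

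Members varied more between follicle libraries than between striatum libraries. The coefficient of variation of the median member was 11.8% in MA striatum, 7.68% in SA striatum, 24.6% in MA follicles and 31.4% in SA follicles. Each library was scored by the median deviation of the 35 members from their means over the 12 libraries of the tissue, on the log2 scale. In the striatum MA library 4 stood highest at 0.27 and held the top value of 21 of 35 members, MA library 5 followed at 0.16, and the other 10 libraries lay between -0.10 and 0.04. In the follicle MA libraries 1 and 2 were low at -0.64 and -0.46, whereas among SA libraries library 0 was lowest of all at -0.75, and libraries 4 and 5 were highest at 0.59 and 0.67. SA library 0 held the lowest value of 24 of 35 members and SA library 5 the highest of 21. These scores use FPKM that was not rescaled between libraries. As a share of the FPKM sum of their library, the members made up 0.616% and 0.596% in MA follicle libraries 1 and 2, within the 0.556 to 0.705% of the MA group. In SA follicle library 0 the share was 0.405%, the lowest, and the SA group reached 0.96%.

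**Figure D1:**
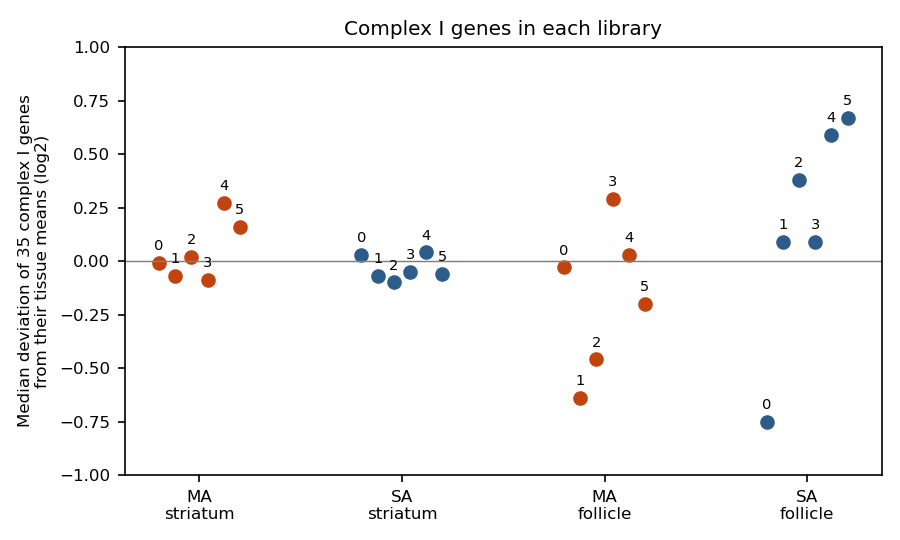
The vertical axis is the median deviation of the 35 members from their means over the 12 libraries of a tissue, on the log2(FPKM + 1) scale, and each point is a library with its index. Striatum libraries lie between -0.10 and 0.27, while follicle libraries spread between -0.75 (SA library 0) and 0.67 (SA library 5).

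Markers of cell types also varied between libraries, in part with the scores of the members. In the striatum the summed astrocyte markers were at 2420 to 5726 FPKM in MA libraries and 2595 to 3315 FPKM in SA libraries, microglia markers at 236 to 675 and 273 to 416 FPKM, and neuron markers at 631 to 1183 and 824 to 1224 FPKM. MA library 4 held the highest astrocyte and microglia sums and the lowest neuron sum. Among SA libraries, library 3 held these same extremes, with a member score of -0.05. In the follicle the hair matrix markers summed to 470 to 809 FPKM in MA libraries and 228 to 971 FPKM in SA libraries, those of epidermis and outer root sheath to 30323 to 56946 and 30865 to 71284 FPKM, and those of the inner root sheath to 14216 to 27036 and 18423 to 34224 FPKM. SA library 0 had the highest hair matrix sum and the lowest of both sheaths among SA libraries, and SA library 5 had the lowest hair matrix sum. MA libraries 1 and 2, where the members were also low, had hair matrix sums of 546 and 470 FPKM, the latter the lowest of the MA group. No marker row of these lists was at 0 in a whole group of its own tissue. Endothelial markers summed to at most 0.784 FPKM in MA follicles and 1.61 FPKM in SA follicles, where Cldn5 and Cdh5 were at 0 throughout. The part of these cell types in the results that follow was not tested.

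In the striatum, complex I genes lay slightly higher in MA than in SA rats, and none of the 35 passed the test. A gene was called with a Benjamini-Hochberg adjusted p under 0.05 in limma and a fold of at least 1.5, which 0.00943% of all 10607 genes did. Of the members, 29 lay above 0 and 6 below, with a median log2 fold change of 0.08 (0.00 over all genes). At an unadjusted p under 0.05, 1 member was higher in MA rats and 0 were lower, and over all genes 5.38% were higher and 2.88% lower. The smallest adjusted p of a member was 0.603. All differences here and later are on the log2(FPKM + 1) scale.

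The member with the smallest p was Ndufb2, an accessory subunit of the distal membrane arm. It ran between 264 and 430 FPKM in MA striatum (median 312), against 252 to 296 FPKM in SA striatum (median 280). MA libraries 4 and 5 were the high ones and the groups overlapped, with a log2 difference of 0.24 (SE 0.11), an adjusted p of 0.603 in limma and an exact two-sided permutation p of 0.0346 over 924 assignments, not adjusted over genes. Ndufs6, a zinc-binding accessory subunit of the N module, was at 69.0 to 107 FPKM in MA striatum (median 72.1), against 59.1 to 81.5 FPKM in SA striatum (median 64.2). All 6 MA libraries exceeded the SA median, yet the groups overlapped (log2 difference 0.21, SE 0.12, limma adjusted p = 0.641). For Ndufa4 the values were 360 to 467 FPKM in MA striatum (median 398), against 346 to 389 FPKM in SA striatum (median 360), and the log2 difference was 0.15 (SE 0.08, limma adjusted p = 0.641). Ndufb5, another distal arm subunit, was at 81.7 to 106 FPKM in MA striatum (median 87.9), against 81.1 to 92.4 FPKM in SA striatum (median 82.3), a log2 difference of 0.12 (SE 0.08, limma adjusted p = 0.669).

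By module, the small shift was seen most evenly in the distal membrane arm, where 11 of 11 members lay above 0 (median 0.12). The N module had 8 of 10 above 0 (median 0.07), the Q module 4 of 5 (median 0.04) and the proximal membrane arm 4 of 6 (median 0.09). The 7 conserved core subunits, which carry the flavin and the iron-sulfur clusters, had a median of 0.02. Ndufa10l1 had the lowest value, at 46.4 ± 3.07 FPKM in MA striatum and 50.8 ± 6.44 FPKM in SA striatum (log2 difference -0.12, SE 0.09). Without MA library 4 the median of the 35 members was 0.04, after quantile normalization it was 0.01 with 19 members above 0, and with FPKM rescaled to a common sum it was -0.01 (-0.09 over all genes). With a common median it was 0.07 with 29 above 0. Among the alternatives run, the sign of the median turned only with the common sum. Relative to all genes the median stood at 0.08 there as on the deposited scale, but at 0.03 without MA library 4 and at 0.03 after quantile normalization.

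In the whisker follicle the members lay on the other side, lower in MA than in SA rats, but with a spread that kept all of them from passing the test over the 12 libraries. There were 31 members below 0 and 4 above, with a median log2 fold change of -0.32 (-0.01 over all genes). None of the 35 was called, and of all 9138 genes 0% were called. At an unadjusted p under 0.05, 2 members were lower in MA rats and 0 higher, against 5.18% lower and 5.25% higher over all genes. These genes were chosen with results of the same libraries known, so the direction is not independent evidence. Summed over the members, FPKM was 4771 to 9112 in MA follicles and 4223 to 13163 in SA follicles.

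Ndufb3, a small subunit of the distal membrane arm, was at 41.3 to 72.7 FPKM in MA follicles (median 63.7), against 43.8 to 128 FPKM in SA follicles (median 87.3). No MA library exceeded the SA median, and SA library 0 was the low one of its group (log2 difference -0.54, SE 0.24, limma adjusted p = 0.465, exact permutation p = 0.0606). Ndufv3, an accessory subunit beside the flavin-binding subunit of the N module, was at 31.1 to 73.9 FPKM in MA follicles (median 44.7), against 35.1 to 124 FPKM in SA follicles (median 72.0), a log2 difference of -0.67 (SE 0.31, limma adjusted p = 0.465, exact permutation p = 0.0779). Ndufs6 was at 56.5 to 135 FPKM in MA follicles (median 93.2), against 55.3 to 221 FPKM in SA follicles (median 169), a log2 difference of -0.64 (SE 0.32, limma adjusted p = 0.465, exact permutation p = 0.113).

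The core subunit Ndufs1, which carries iron-sulfur clusters of the N module, ran against the others. It was at 22.4 to 33.7 FPKM in MA follicles (median 24.6), against 11.7 to 37.6 FPKM in SA follicles (median 17.9). All 6 MA libraries exceeded the SA median, and the highest value of all was in SA library 0, the library where most other members were lowest. Its log2 difference was 0.46 (SE 0.22, limma adjusted p = 0.465, exact permutation p = 0.0801). Also above 0 were Ndufa10l1 (0.08) and Ndufv1 (0.04), the core subunit that binds NADH and FMN.

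SA library 0 decided the calls. It held the lowest value of 24 of 35 members and the highest follicle value of Ndufs1. Leaving it out by itself lowers most of these differences and raises that of Ndufs1, so the calls made that way are not independent evidence. Without SA library 0, 13 members were called, Ndufs1 higher and 12 lower in MA rats, with a median of -0.49. Of all 9059 genes, 7.41% were called higher and 6.05% lower. The 12 lower were Ndufa2, Ndufa5, Ndufs6, Ndufv3, Ndufa6 and Ndufa7 of the hydrophilic arm, Ndufa11 of the proximal membrane arm, Ndufb2, Ndufb3, Ndufb5 and Ndufb11 of the distal arm, and Ndufa4. In that fit Ndufa2 had a log2 difference of -0.92 (limma adjusted p = 0.0210), Ndufb3 of -0.73 (adjusted p = 0.0219) and Ndufs1 of 0.66 (adjusted p = 0.0193). When limma's array weights gave libraries far from their group less influence, 11 of these 13 were called (1 higher and 10 lower, against 7.57% and 5.12% of all genes) and the median was -0.44. MA library 1 had the lowest member score of the MA group. Leaving it out together with SA library 0, a choice made after seeing the data, left 5 called (Ndufs1 higher, Ndufa2, Ndufa5, Ndufb3 and Ndufs6 lower). Of all genes, 3.01% were then called higher and 2.55% lower. Leaving out any other library gave 0 calls. After quantile normalization the median was -0.15 with 30 members below 0 (-0.02 over all genes). With a common sum it was -0.15 with 29 below 0 (0.14 over all genes). Relative to all genes these medians stood at -0.12 and -0.29, against -0.31 on the deposited scale.

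**Figure D2:**
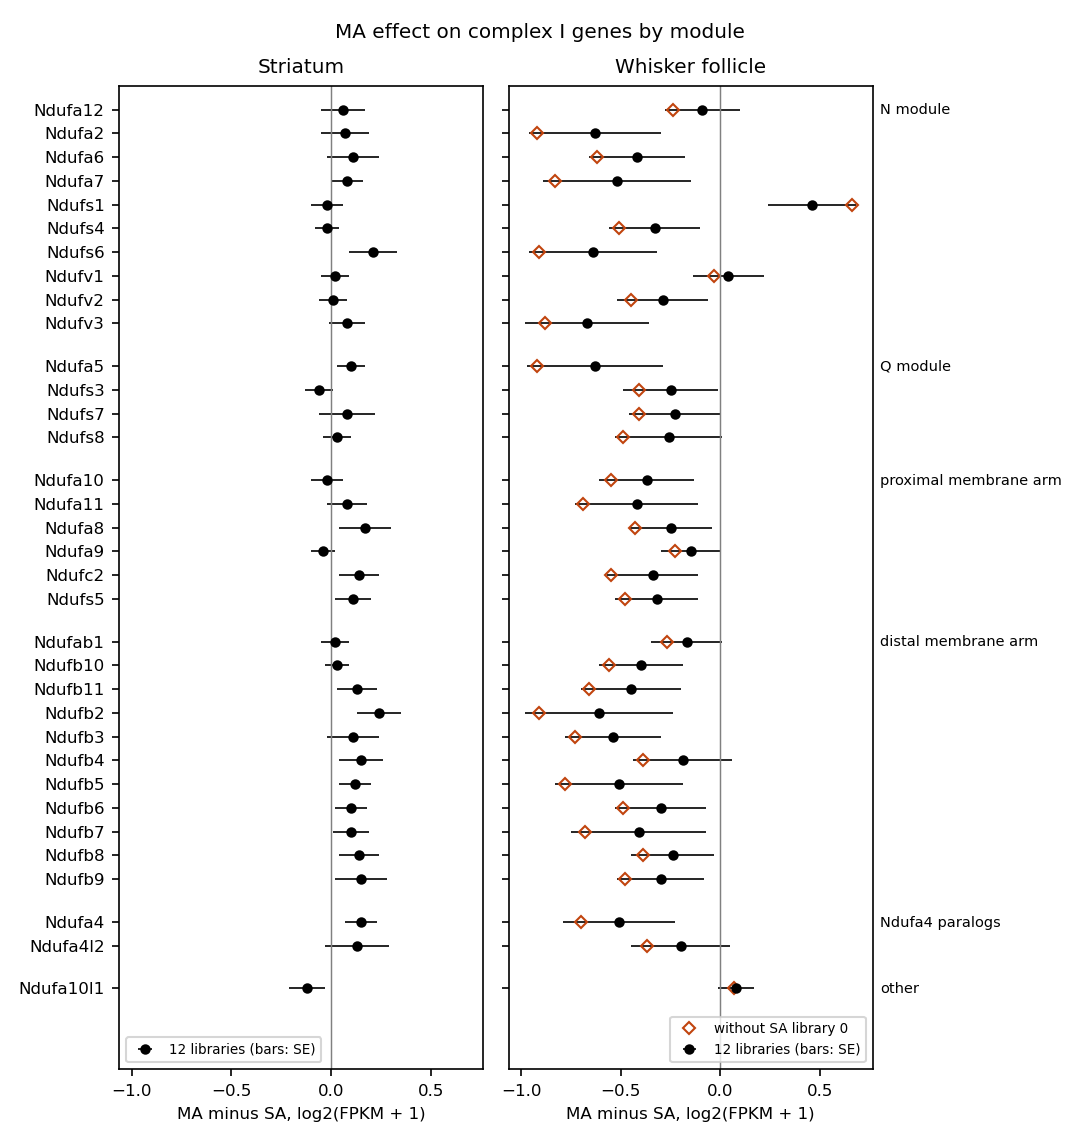
Each of the 34 rows is a member, grouped by module (Ndufa10l1 stands last), and the horizontal axis is the MA minus SA difference in log2(FPKM + 1) with its standard error (black, 12 libraries a tissue) and, for the follicle, the value without SA library 0 (open diamonds). Striatum values lie between -0.12 and 0.24, and follicle values between -0.67 and 0.46, with Ndufs1 the highest.

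All structural parts shared the follicle direction. The distal membrane arm had 11 of 11 members below 0 (median -0.40) and the proximal arm 6 of 6 (median -0.33), while the N module had 8 of 10 (median -0.38), the Q module 4 of 5 (median -0.25) and the core subunits 4 of 7 (median -0.23). None of these members was called in the fit over 12 libraries.

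The other respiratory complexes and the assembly factors of complex I were set beside these values from lists of known members. In the follicle, complex II had 3 of 4 below 0 (median -0.31), complex III 7 of 9 (median -0.52), complex IV 8 of 11 (median -0.36) and complex V, the ATP synthase, 14 of 16 (median -0.54). Of the complex I assembly factors 13 of 14 were below 0 (median -0.20). In the striatum, complex III had 8 of 9 above 0 (median 0.08), complex IV 10 of 11 (median 0.21), complex V 14 of 16 (median 0.13), complex II 3 of 4 (median 0.05) and the assembly factors 8 of 14 (median 0.03). Regulators of mitochondrial biogenesis ran both ways, with a median of -0.04 (-0.17 to 0.16) in the striatum and -0.03 (-0.38 to 0.47) in the follicle, and other mitochondrial genes had medians of 0.03 in the striatum and -0.13 in the follicle. No gene of these lists was called in either tissue.

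The list members with the smallest p are given as examples. In the follicle the assembly factor Lyrm2 was at 31.5 ± 6.01 FPKM in MA rats and 45.2 ± 11.2 FPKM in SA rats (log2 difference -0.49), and Nubpl, which supplies iron-sulfur clusters to complex I, had a difference of -0.33. Within complex II, Sdhd, a membrane anchor, differed by -0.34, whereas Sdha, the flavoprotein, was at 39.7 ± 1.68 FPKM in MA rats and 34 ± 5.09 FPKM in SA rats (0.23). Uqcrb and Uqcrh of complex III differed by -0.70 and -0.62, Cox7b and Cox5a of complex IV by -0.57 and -0.36, and Atp5l and Atp5e of complex V by -0.79 and -0.94. Among regulators, Nrf1, a transcription factor of respiratory genes, had a positive difference (0.47) and Tfb2m, a mitochondrial transcription factor, a negative one (-0.38), and among other mitochondrial genes the matrix protease Lonp1 was at 33.4 ± 4.22 FPKM in MA rats and 25.0 ± 5.32 FPKM in SA rats (0.42) while the chaperonin Hspd1 differed by -0.48. All of these had a limma adjusted p of 0.465.

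In the striatum the corresponding examples were small. Cox7c of complex IV was at 678 ± 110 FPKM in MA rats and 554 ± 40.3 FPKM in SA rats (log2 difference 0.28, limma adjusted p = 0.589), and Cox7a2 differed by 0.43. Uqcr11 and Uqcr10 of complex III differed by 0.29 and 0.23, Atp5i and Atp5e of complex V by 0.23 and 0.30, and Sdhc and Sdha of complex II by 0.14 and 0.06. The assembly factors Ndufaf1 and Tmem186 were on the other side (-0.17 and -0.11), as were Polrmt (-0.13) and Timm44 (-0.12), whereas Nrf1 differed by 0.16 and Timm23 by 0.14.

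Whether MA went with different changes in the 2 tissues was tested as an interaction over all 24 libraries, as the MA minus SA difference in the striatum minus that in the follicle. The median of the 35 members was 0.42 (0.01 over all genes), with 31 above 0 and 4 below, and 0 were called (0.00910% of all 10985 genes). At an unadjusted p under 0.05, 6 members had a more positive MA difference in the striatum, against 6.98% of all genes, and the smallest adjusted p was 0.43. Ndufs6 had the smallest p (interaction 0.85, SE 0.36, limma adjusted p = 0.43), followed by Ndufb3 (0.65, SE 0.28) and Ndufv3 (0.75, SE 0.33). Without SA follicle library 0, 18 members were called, 17 of them with the more positive MA difference in the striatum (6.04% of all 10990 genes) and Ndufs1 with the opposite sign (5.24%). As in the follicle, these calls rest on leaving out the library where most members were lowest, so they are not independent evidence. With library weights 15 were called, 14 with the more positive difference (5.80% of all genes) and 1 with the opposite sign (6.85%). Over all libraries, a difference between the tissues in the MA effect on these genes did not pass the test.

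**Figure D3:**
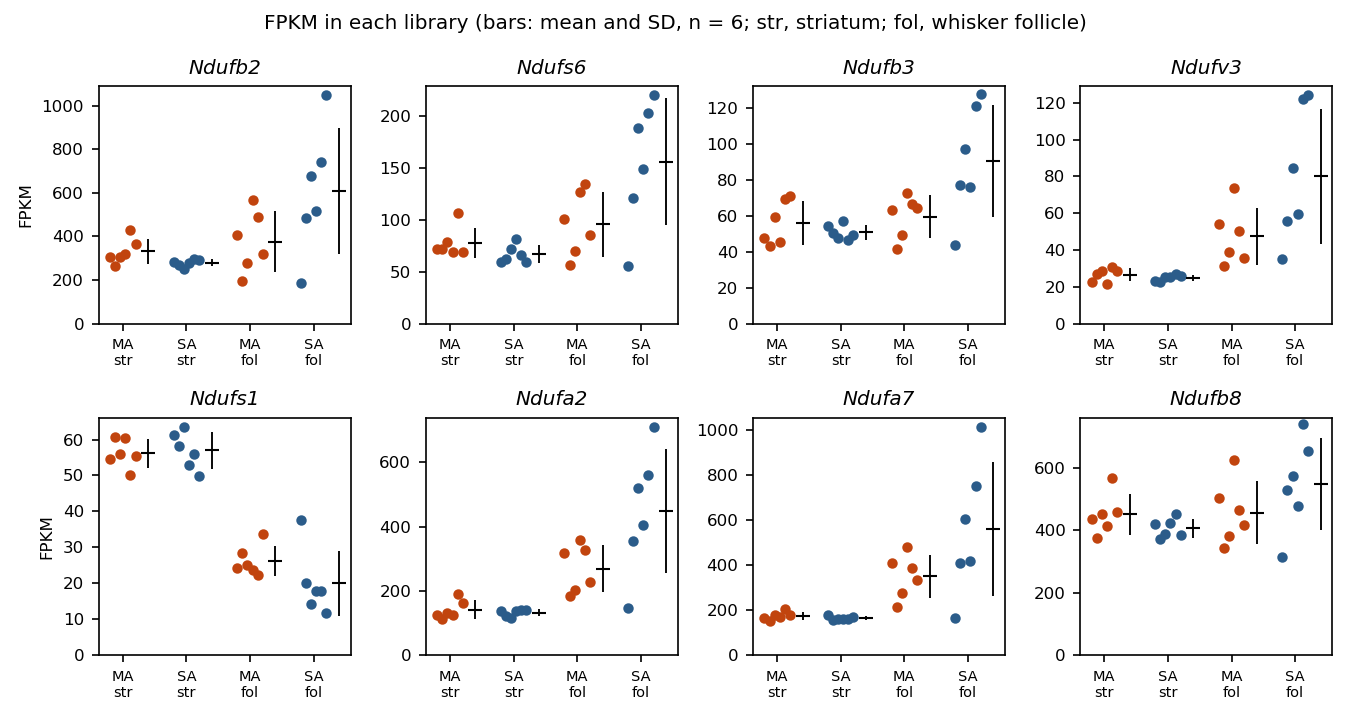
FPKM of 8 members in each library, with MA beside SA for the striatum and the follicle, and bars for the mean and SD of 6 libraries. SA follicles spread most, for example from 185 to 1047 FPKM for Ndufb2, and Ndufs1 has its highest follicle value, 37.6 FPKM, in SA library 0.

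Between the tissues, the direction of the whole set depended on the scaling. On the deposited FPKM the median difference, striatum minus follicle, was -0.20 in MA rats and -0.52 in SA rats (0.22 and 0.24 over all genes). In MA rats 2 members were called higher in striatum (41.4% of all genes) and 8 lower (31.3%), and in SA rats 1 was called higher (42.5%) and 17 lower (32.0%). The 8 lower in MA rats, Ndufa4l2, Ndufb7, Ndufa7, Ndufa11, Ndufa2, Ndufa6, Ndufv3 and Ndufb5, were all among the 17 of SA rats, and Ndufa8 was called higher in MA rats (0.72, against 0.30 in SA rats), a difference between the treatments that did not pass as the interaction (0.43, SE 0.25, limma adjusted p = 0.494). Setting all libraries to a common median gave -0.59 in MA rats and -0.94 in SA rats (-0.17 over all genes in each). Quantile normalization gave 0.25 and 0.14 (-0.10 over all genes in each). A common sum gave 1.31 and 1.25 (1.60 and 1.82 over all genes). Relative to all genes, the members stood at -0.41 in MA and -0.76 in SA rats, as deposited and with a common median. With a common sum they stood at -0.29 and -0.57, and after quantile normalization at 0.35 and 0.24. The sign differed between scalings either way, so no direction is given for the set. Under the 4 scalings Ndufs1 was called higher in striatum and Ndufa4l2 lower each time, in MA as in SA rats. No other member kept a call under all 4. Under single scalings 33.5% to 76.2% of all genes were called higher in striatum and 11.3% to 41.1% lower. The share of all genes that kept a call under all 4 was not counted.

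**Figure D4:**
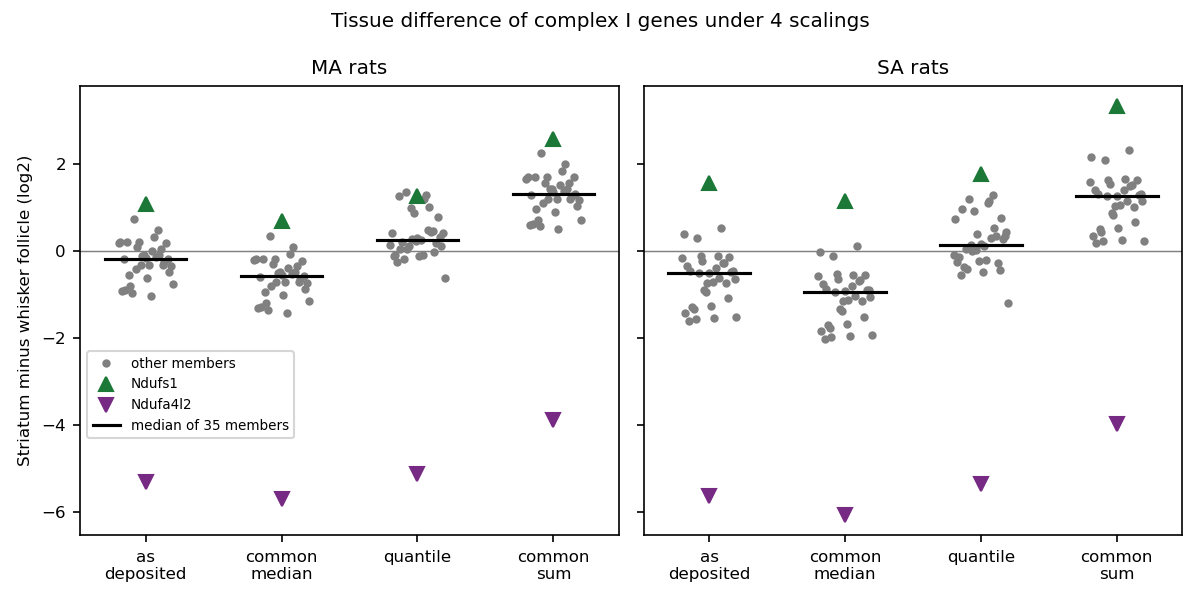
The vertical axis is the striatum minus whisker follicle difference on the log2 scale, each grey point is a member, and the black line is the median of 35 members under each of 4 scalings. The median runs from -0.94 to 1.25 in SA rats, where that of all genes (not drawn) runs from -0.17 to 1.82. Ndufs1 stays above 0 and Ndufa4l2 below -3 under each scaling.

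Ndufa4l2 is a paralog of Ndufa4. Ndufa4 was first counted with complex I and is now placed in complex IV, and in human and mouse cells Ndufa4l2 is known as a gene that hypoxia switches on and that lowers complex I activity. It was at 6.42 to 13.3 FPKM in MA striatum (median 7.83), against 281 to 581 FPKM in MA follicles (median 356), and at 5.68 to 10.5 FPKM in SA striatum (median 7.61), against 233 to 669 FPKM in SA follicles (median 438). Every follicle library lay far above every striatum library. The log2 difference was -5.31 (SE 0.18) in MA rats and -5.63 (SE 0.22) in SA rats, with limma adjusted p = 7.93e-13 and 1.44e-11. Ndufa4 itself averaged 406 ± 42.0 FPKM in MA striatum and 371 ± 115 FPKM in MA follicles, and 365 ± 17.7 FPKM in SA striatum and 535 ± 184 FPKM in SA follicles (SD, n = 6 each), and its tissue difference was not called (0.19 in MA rats and -0.47 in SA rats).

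The share of Ndufa4l2 in the FPKM of the pair is the same under any scaling by 1 factor a library, which leaves out quantile normalization. It was 1.42 to 2.77% in MA striatum (mean 2.09%), against 39.3 to 70.8% in MA follicles (mean 51.2%), and 1.45 to 2.81% in SA striatum (mean 2.09%), against 32.8 to 56.2% in SA follicles (mean 46.1%). The exact permutation p was 0.00216 in each, the smallest that 6 against 6 libraries can give (adjusted p = 0.0054 over 20 comparisons of such ratios by exact permutation). Ndufa4l2 had the largest negative tissue difference of the members in SA rats, so the p there is not independent evidence. Between MA and SA follicles the shares overlapped (difference 5.04 percentage points, exact permutation p = 0.40), and in the striatum the means differed by -0.0014 points (exact permutation p = 1). MA follicle library 2 had the highest share, 70.8%.

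**Figure D5:**
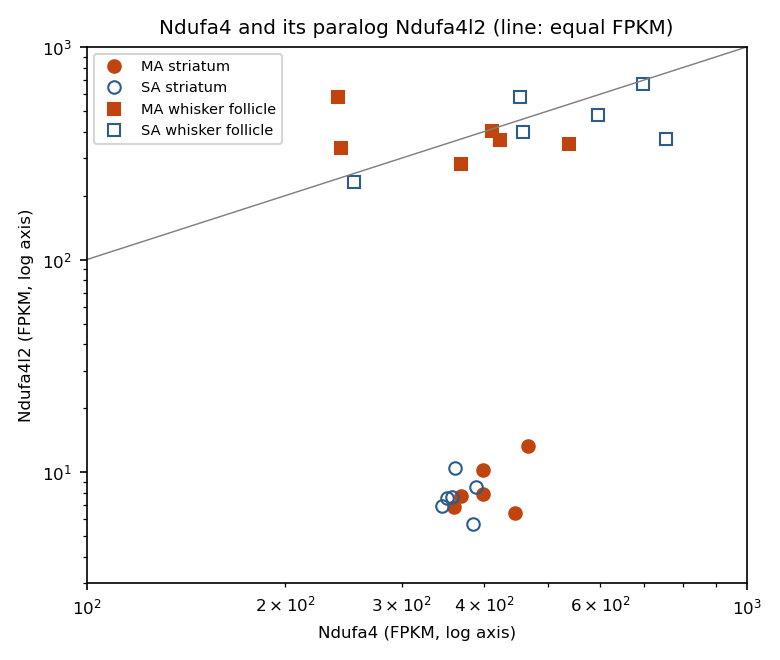
Ndufa4 FPKM (horizontal) against Ndufa4l2 FPKM (vertical) in each of 24 libraries, both on log axes, with filled symbols for MA and open symbols for SA, and a line of equal FPKM. Striatum libraries lie at 5.68 to 13.3 FPKM of Ndufa4l2 and follicle libraries at 233 to 669 FPKM, with Ndufa4 at 240 to 754 FPKM over both tissues.

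Ndufs1 was the member highest in striatum against follicle. It was at 50 to 60.8 FPKM in MA striatum (median 55.7), against 22.4 to 33.7 FPKM in MA follicles (median 24.6), and at 49.8 to 63.5 FPKM in SA striatum (median 57.1), against 11.7 to 37.6 FPKM in SA follicles (median 17.9). No follicle library reached the striatum (log2 difference 1.08, SE 0.10, in MA rats and 1.56, SE 0.21, in SA rats, with limma adjusted p = 8.77e-08 and 8.51e-06). Ndufs1 was picked for its tissue difference in SA rats, so a separation there is not independent evidence. Its level was also set per 100 of the geometric mean of the other 34 members in the same library. This was 38.7 to 61.1 in MA striatum against 12.4 to 27.4 in MA follicles, and 48.8 to 65.3 in SA striatum against 4.66 to 40.3 in SA follicles, where SA library 0 gave the 40.3 and the other 5 lay at or below 11.8. In the order of levels Ndufs1 was number 27 of 35 in MA and SA striatum, number 33 in MA follicles and number 35 in SA follicles.

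Ndufa10l1 lay above 0 between the tissues on the deposited scale without reaching a fold of 1.5. It was at 43.2 to 51.3 FPKM in MA striatum (median 45.6), against 36.1 to 45.1 FPKM in MA follicles (median 40.1), and at 43.1 to 58.5 FPKM in SA striatum (median 49.8), against 34.8 to 42.8 FPKM in SA follicles (median 37.4). Its log2 difference was 0.19 in MA rats and 0.39 in SA rats on the deposited scale, and -0.20 and -0.03 with a common median. Its near copy Ndufa10 may share reads with it, so the split of the pair is uncertain.

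At the other end stood Ndufa2 and Ndufa7, small accessory subunits of the N module. Ndufa2 was at 111 to 191 FPKM in MA striatum (median 129), against 183 to 357 FPKM in MA follicles (median 273), and at 116 to 141 FPKM in SA striatum (median 137), against 145 to 710 FPKM in SA follicles (median 462). Its log2 difference was -0.90 in MA rats and -1.60 in SA rats, but 0.61 and 0.17 with a common sum. Ndufa7 was at 151 to 204 FPKM in MA striatum (median 174), against 214 to 481 FPKM in MA follicles (median 359), and at 154 to 179 FPKM in SA striatum (median 161), against 163 to 1013 FPKM in SA follicles (median 511), a log2 difference of -0.96 in MA rats and -1.56 in SA rats (0.22 in SA rats with a common sum). Relative to the other 34 members, Ndufa2 was at 114 to 154 per 100 in MA striatum against 173 to 221 in MA follicles. In SA rats it was at 122 to 143 in striatum against 162 to 318 in follicles, and the groups did not overlap in either. Ndufa2 too was picked for its tissue difference in SA rats, so the separation there is not independent evidence.

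The 2 members with the highest levels differed in how far the tissues overlapped. Ndufb8 was at 376 to 568 FPKM in MA striatum (median 444), against 345 to 625 FPKM in MA follicles (median 442), and at 371 to 453 FPKM in SA striatum (median 404), against 315 to 741 FPKM in SA follicles (median 551), and the tissues overlapped in both. Ndufa6 was at 244 to 439 FPKM in MA striatum (median 287), against 396 to 699 FPKM in MA follicles (median 558), and at 234 to 301 FPKM in SA striatum (median 292), against 362 to 930 FPKM in SA follicles (median 806). The tissues overlapped for Ndufa6 in MA rats and not in SA rats. Its log2 difference on the deposited scale was -0.81 in MA rats and -1.34 in SA rats, and its call did not hold under all 4 scalings.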

How the data were processed

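RNA from the striatum and whisker follicles of 6 MA and 6 SA self-administered rats (TRIzol, poly(A) libraries, paired-end sequencing) gave 24 libraries. The authors deposited FPKM values in 1 table, made per the paper with Cutadapt, TopHat2 on rn6 and Cufflinks. Processing notes of the submitters list Cufflinks 2.2.1, STAR 2.6.0c, bcl2fastq and the rn6 build. The annotation is not given in the sources used here. FPKM was not rescaled between libraries, which leaves each comparison open to differences in library makeup.

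The log2(FPKM + 1) values of genes averaging 1 FPKM or more were fitted in limma 3.58.1 (R 4.3.3, moderated variances with a trend), with Benjamini-Hochberg adjustment over all of these genes. Adding 1 makes the fold of weakly expressed genes too small. A call required a fold of 1.5 or more as well as an adjusted p below 0.05. Single genes and ratios were compared by two-sided exact permutation tests over 924 assignments. The labels name the samples biological replicates, and the p-values set a difference against the spread between these libraries. Fits across the tissues treated libraries of the same rats as independent. The fits were tested on simulated data in which each gene varied independently. Shifts shared by many genes of a library were not covered by it.

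The members and lists were chosen with earlier results of these data known. Values in every group are given for the 4 members with the smallest p in each tissue, the 3 with the smallest interaction p, the 3 with the largest difference between tissues in SA rats in each direction, the highest member of each tissue, members listed at 0, and Ndufa4 with Ndufa4l2. The values of 1 member are not reported here, but it is part of all counts and medians. The other mitochondrial lists give the 2 genes with the smallest p per tissue. Promoters are RefSeq sequences of GRCr8, matched by symbol, and no coordinates of the deposited table are mixed with them. Alternatives were other pseudocounts, filters and scalings, no trend, library weights, other call rules and each library left out.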

Additional observations from a re-analysis of the deposited data

Results flagged for a closer look

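Among the named members 60 groups of 6 libraries were examined for a library far from the rest, by the ratio of its gap to the range of its group against Dixon's critical value, and 4 passed. Chance gives about 1 in 20. Ndufs6 was at 107 FPKM in MA striatum library 4. Ndufs1 was at 37.6 FPKM in SA follicle library 0, above the other 5 SA libraries. In SA striatum, Ndufb5 was at 92.4 FPKM in library 4 and Ndufa6 at 234 FPKM in library 2. MA striatum library 4 and SA follicle library 0 also hold the extreme values of most other members (21 and 24 of 35).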

How the results depend on the processing

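No paired analysis was possible because the library indexes are not tied to rats. Calls in the follicle numbered 0 over all libraries, 11 with library weights (12.7% of all genes), 1 with an unadjusted p and the fold (3.68%), 0 to 13 when 1 library was left out, and 5 without MA library 1 and SA library 0 together (5.56%). Interaction calls numbered 0 over all libraries, 15 with weights (12.6%), 5 with an unadjusted p and the fold (5.51%), 0 to 18 when 1 library was left out, and 11 without those 2 libraries (7.24%). In both the upper bound came without SA follicle library 0 (13.5% and 11.3% of all genes). Striatum calls stayed at 0 under every alternative run. Tissue calls in MA rats numbered 10 (2 higher in striatum), against 72.7% of all genes called in either direction and 41.4% called higher. They became 19 with a common median (1 higher), against 73.8% and 33.5%. After quantile normalization there were 11 (9 higher), against 70.7% and 33.5%. A common sum gave 33 (32 higher), against 85.6% and 73.4%. The adjusted p alone gave 17 (4 higher), against 85.9% in either direction. In SA rats tissue calls numbered 18 (1 higher), against 74.5% of all genes in either direction and 42.5% higher. They became 28 with a common median (1 higher), against 75.4% and 34.3%. After quantile normalization there were 11 (9 higher), against 71.8% and 34.3%. A common sum gave 27 (26 higher), against 87.6% and 76.2%. As deposited, the median tissue difference was -0.20 in MA rats and -0.52 in SA rats. With a common median, quantile normalization and a common sum it was -0.59, 0.25 and 1.31 in MA rats. In SA rats it was -0.94, 0.14 and 1.25. Over all genes the medians of these 4 scalings were 0.22, -0.17, -0.10 and 1.60 in MA rats. For SA rats they were 0.24, -0.17, -0.10 and 1.82. In SA rats Ndufa2 reversed to 0.17 and Ndufa7 to 0.22 with a common sum, and Ndufa10l1 to -0.03 with a common median. The scaling itself sets these tissue values, and the cause of the other changes was not tested. Of 434 values of single members under alternatives, 400 kept their direction and their side of the threshold, 29 came to pass it, 2 no longer passed and 3 reversed. Of 219 counts and medians of the set, 200 were alike, 12 counts rose, 1 fell, 2 medians moved and 4 reversed. The reads behind each value are unknown, so the error at low FPKM could not be given.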
